A study of Mus musculus with 2 samples.

Results

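Toll-like receptors are the sensors with which cells recognise conserved molecules of bacteria, viruses and fungi, and *Myd88* is the adaptor through which most of them signal. The mouse genes examined here were the 9 receptors *Tlr1* to *Tlr9* together with *Myd88*. They are 10 of the 20246 genes for which protein-coding RefSeq transcripts in the deposited table carried a gene name, and they were chosen by name, with every protein-coding transcript of each gene kept. This gave 11 transcripts, 2 of them from *Tlr1* and 1 from each other gene.

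RNA-seq was measured in 1 library of *Ebf1* -/- pre-pro-B cells and 1 library of *Rag2* -/- pro-B cells, both on a C57BL/6 background. Cells without Ebf1 are arrested before commitment to the B lineage, and cells without Rag2 are arrested at the committed pro-B stage, because they cannot rearrange immunoglobulin genes. Both were grown on OP-9 stromal cells with Il-7 at 5 ng/mL. The pre-pro-B cultures also received Scf and Flt3l, each at 10 ng/mL. By the study's methods, the pre-pro-B cells came from female embryonic liver and the pro-B cells from male adult bone marrow, so that cell type cannot be told apart from genotype, donor sex, age, tissue and cytokines. With 1 library per cell type there was no replicate error and no test was made. The error given is the 95% confidence interval that Cuffdiff attached to each FPKM, the number of fragments scaled to transcript length and to mapped reads. This interval comes from Cuffdiff's model and does not measure the spread between cultures.

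The receptors fall into groups by where they act. Tlr1, Tlr2, Tlr4, Tlr5 and Tlr6 sit at the cell surface and bind mainly bacterial lipids and proteins, and Tlr2 pairs with Tlr1 or Tlr6. Tlr3, Tlr7, Tlr8 and Tlr9 act in endosomes and sense nucleic acids. Ligand binding brings together the cytoplasmic TIR domains, which recruit Myd88 and, through it, Irak kinases and Traf6. Tlr3 signals through another adaptor, Ticam1, which Tlr4 also uses.

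Both libraries were sequenced to a nominal 90000000 reads. Of the 20246 genes, 10029 reached 1 FPKM in the pre-pro-B library and 9346 in the pro-B library. The targeted genes were each lower in the library of their own null cells but not at 0. The FPKM of *Ebf1* was 64.0 in the pre-pro-B and 273 in the pro-B library, and that of *Rag2* was 34.5 and 22.9. These values cannot show from which part of a gene the reads came. The other 7 of 8 B lineage markers had FPKM of 0.200 to 1.83 in the pre-pro-B library and of 135 to 798 in the pro-B library, among them *Igll1* (1.17 and 798) and *Pax5* (1.13 and 239). Of 4 early progenitor markers 3 were lower in the pro-B library, with *Cd34* at 534 and 1.52, and *Il7r* was high in both (349 and 424).

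The leading receptor by FPKM differed between the libraries. In pre-pro-B cells it was *Tlr7*, the endosomal sensor of single-stranded RNA, at 43.2 FPKM against 0.174 in the pro-B library. In pro-B cells it was *Tlr4*, the receptor for lipopolysaccharide, at 16.6 FPKM against 3.07 in the pre-pro-B library. Within each library its interval overlapped that of the next receptor, *Tlr2* in pre-pro-B and *Tlr6* in pro-B cells. *Tlr2* and *Tlr9* were lower in pro-B cells, *Myd88* was present in both, and *Tlr5* and *Tlr8* were listed at 0 in both. In bulk RNA, fewer cells of a type and less RNA per cell cannot be told apart.

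**Figure D1:**
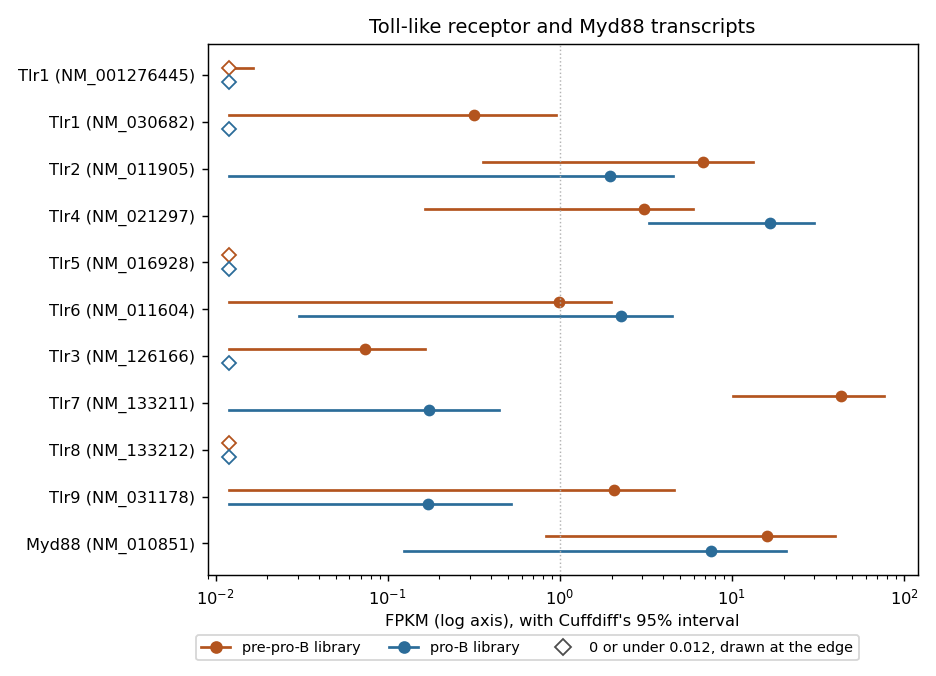
FPKM of the 11 transcripts of the Toll-like receptor genes and *Myd88* on a log axis, with lines for Cuffdiff's 95% interval, in the pre-pro-B library (orange) and the pro-B library (blue), and open diamonds for values of 0 or under 0.012. The lines of *Tlr7* lie apart (10.1 to 76.3 and 0 to 0.443), and those of *Tlr4* overlap between 3.29 and 5.97.

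Among the endosomal receptors, *Tlr7* (NM_133211, chromosome X of mm9, 163742863 to 163768460) stood at 43.2 FPKM (interval 10.1 to 76.3) in the pre-pro-B library and at 0.174 (interval 0 to 0.443) in the pro-B library. The FPKM were 248-fold apart, and the nearest limits of the intervals were still 22.8-fold apart. At the nominal depth, which is not the number of mapped reads, the values correspond to about 14575 and 58.7 fragments. In pre-pro-B cells *Tlr7* ranked 1737th of 20246 genes, and in pro-B cells 10762nd. On the scale log2(FPKM + 1) its difference was -5.24, the 72nd most negative of the 10525 genes that reached 1 FPKM in either library.

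*Tlr8* (NM_133212, chromosome X, 163680664 to 163701720), a further receptor for RNA, is the neighbour of *Tlr7* on the same strand of the X chromosome, with 41142 bases between them, and was listed at 0 in both libraries. *Tlr9* (NM_031178, chromosome 9, 106124929 to 106129207), the receptor for unmethylated CpG DNA, stood at 2.07 FPKM (interval 0 to 4.61) in the pre-pro-B and 0.171 (interval 0 to 0.524) in the pro-B library. Its values were 12.1-fold apart, with intervals that overlapped. *Tlr3* (NM_126166, chromosome 8, 46481019 to 46495893), which senses double-stranded RNA, stood at 0.0740 FPKM (interval 0 to 0.164), about 28.8 fragments, in the pre-pro-B library and was listed at 0 in the pro-B library. In pro-B cells, then, *Tlr7* and *Tlr9* were at similar low levels, and the other endosomal receptors were listed at 0.

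*Tlr7* is X-linked and the donors differed in sex, so the other X-linked genes are given beside it. Of 319 X-linked genes that reached 1 FPKM in either library, 39 (12.2%) were lower by 2-fold or more in pro-B cells and 47 (14.7%) higher by as much. Of autosomal genes 19.3% were lower, and of all 10525 genes counted 12.2% were higher. The median log2 difference of the X-linked genes was 0.05, against -0.14 for autosomal genes. By its difference *Tlr7* took place 4 of these 319, counted from the most negative. The part of donor sex in its level was not tested.

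At the cell surface the values went in different directions. *Tlr4* (NM_021297, chromosome 4, 66488845 to 66503830) stood at 3.07 FPKM (interval 0.164 to 5.97) in the pre-pro-B and 16.6 (interval 3.29 to 30.0) in the pro-B library, 5.42-fold higher. Its intervals overlapped. By rank it moved from 8780th to 4245th of 20246 genes.

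*Tlr2* (NM_011905, chromosome 3, 83640194 to 83645530), which recognises bacterial lipoproteins, went the other way. Its pre-pro-B FPKM of 6.77 (interval 0.360 to 13.2) compared with 1.95 (interval 0 to 4.54) in pro-B cells, 3.47-fold apart with overlap. Of its partners, *Tlr6* (NM_011604, chromosome 5, 65344334 to 65351273) stood at 0.994 FPKM (interval 0 to 1.99) in the pre-pro-B and 2.28 (interval 0.0304 to 4.51) in the pro-B library. *Tlr1*, the other partner, gave 0.317 FPKM in the pre-pro-B library (NM_030682, chromosome 5, 65315919 to 65324797, interval 0 to 0.957) and was listed at 0 in the pro-B library, while its further transcript, NM_001276445, gave 6.50e-06 and 0. In pre-pro-B cells *Tlr2* thus had the highest FPKM of the pairing receptors, but its interval overlapped those of *Tlr6* and *Tlr1*. In pro-B cells *Tlr2* and *Tlr6* differed by less than the width of their intervals. *Tlr5* (NM_016928, chromosome 1, 184884919 to 184906175), the receptor for flagellin, was listed at 0 in both libraries.

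*Tlr1* and *Tlr6* lie next to each other on chromosome 5, with 19536 bases between them, and share sequence. In the GENCODE transcripts on mm9, 268 of 2556 windows of 97 bases in *Tlr1* (10.5%) occur unchanged in *Tlr6*, in which they make up 10.7% of the windows. The longest shared run is 229 bases and lies within the coding sequence of each. Reads from it could be divided between them by the authors' multi-read correction, so the low FPKM of *Tlr1* and of *Tlr6* are uncertain to that extent. No 97-base or 50-base window of the other 8 genes occurs in a protein-coding transcript of another gene. The coding sequence of *Tlr1*, *Tlr2* and *Tlr6* lies in a single exon, and that of *Tlr7*, *Tlr8* and *Tlr9* almost whole (99.9%) in 1 of 2 coding exons.

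*Myd88* (NM_010851, chromosome 9, 119245106 to 119249158) stood at 16.0 FPKM (interval 0.830 to 39.5) in the pre-pro-B and 7.53 (interval 0.124 to 20.7) in the pro-B library, with wide overlap. It was the second most abundant of the 10 genes in each library. The values were 2.13-fold apart, and the log2 difference with a pseudocount of 1 was -0.998, just short of 2-fold. Its side of that limit depended on the scale, since the difference was -1.08 when FPKM were rescaled to TPM. The annotated gene overlaps *Acaa1a* on the opposite strand, and the libraries were strand-specific.

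Summed over the 9 receptor genes, the FPKM was 56.5 in pre-pro-B and 21.2 in pro-B cells. The endosomal receptors made up 80.3% of the sum in pre-pro-B cells (FPKM 45.4) and 1.63% in pro-B cells (0.345). The surface receptors had a summed FPKM of 11.2 and 20.9. *Tlr7* alone held 76.5% of the sum in pre-pro-B cells, followed by *Tlr2* with 12.0% and *Tlr4* with 5.43%. In pro-B cells *Tlr4* held 78.4%, *Tlr6* 10.7% and *Tlr2* 9.21%.

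**Figure D2:**
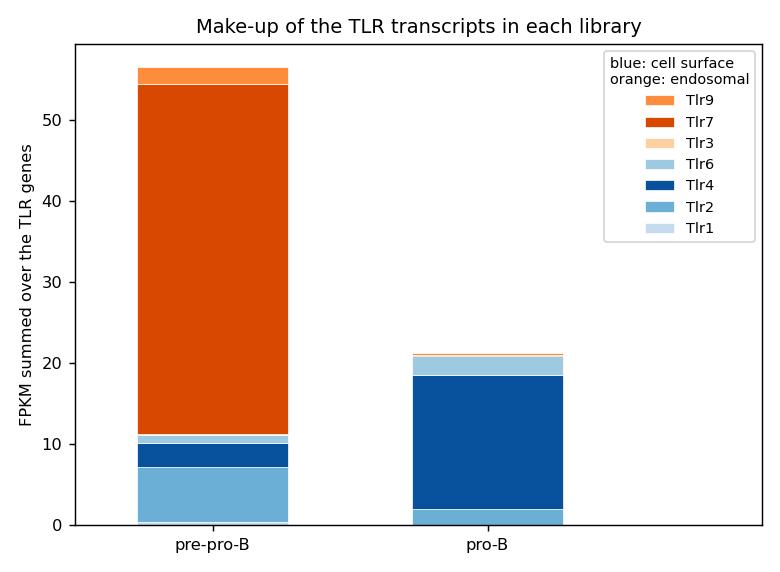
FPKM summed over the Toll-like receptor genes in each library, stacked by gene, with surface receptors in blue and endosomal receptors in orange. *Tlr7* fills most of the pre-pro-B bar (43.2 of 56.5) and *Tlr4* most of the pro-B bar (16.6 of 21.2). *Tlr5* and *Tlr8*, listed at 0, are not drawn.

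Within pre-pro-B cells the order of FPKM was *Tlr7*, *Myd88*, *Tlr2*, *Tlr4*, *Tlr9*, *Tlr6*, *Tlr1* and *Tlr3*. The interval of each neighbour in this order overlapped that of the next. Within pro-B cells the order was *Tlr4*, *Myd88*, *Tlr6*, *Tlr2*, *Tlr7* and *Tlr9*, again with overlap between neighbours, and the other 4 genes were listed at 0. In the pre-pro-B library 5 of the 10 genes reached 1 FPKM, and in the pro-B library 4 did. *Tlr2*, *Tlr4* and *Myd88* reached it in both.

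Set against all genes, 6 of the 10 reached 1 FPKM in either library and could be counted at 2-fold. *Tlr4* was higher in pro-B cells by 2-fold or more on the scale log2(FPKM + 1), with a log2 difference of 2.11. This compares with 12.2% of the 10525 genes counted. *Tlr7* (-5.24), *Tlr2* (-1.40) and *Tlr9* (-1.39) were lower by as much, against 19.1% of all genes, and *Tlr6* (0.72) and *Myd88* lay within 2-fold. The median log2 difference of the 6 genes was -1.19, that of all 10 members was -0.25 and that of all 10525 genes was -0.14. *Tlr7* and *Tlr9* passed this filter only through the pre-pro-B library, where they were higher, and *Tlr6* only through the pro-B library. The 4 genes not counted were *Tlr1*, *Tlr3*, *Tlr5* and *Tlr8*. By Cuffdiff's intervals, 1 of the 6 transcripts that reached 1 FPKM, that of *Tlr7*, had a pro-B interval wholly below its pre-pro-B interval, as did 3.01% of 12875 transcripts. None lay above, against 1.40%.

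**Figure D3:**
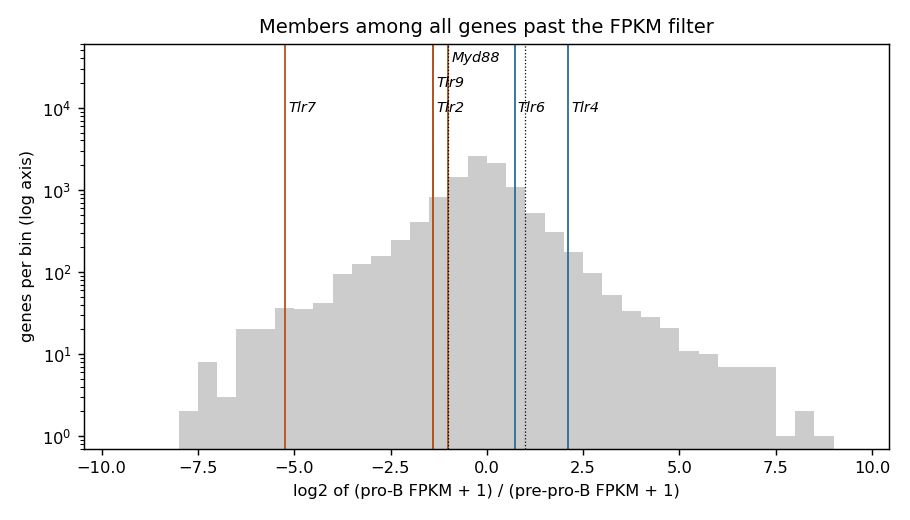
Log2 difference with a pseudocount of 1 for the 10525 genes that reached 1 FPKM in either library (grey bars, genes per bin of 0.5 on a log axis), with lines for the 6 members among them and dotted lines at 2-fold. *Tlr7* at -5.24 lies in the left tail and *Tlr4* at 2.11 on the right, while *Tlr2* and *Tlr9* coincide near -1.4.

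Promoter sequences were read for the members that were lower in pro-B cells and for *Myd88*, to show what lies before their start sites. RefSeq windows on GRCm38.p6, a later build than mm9, matched 8 of the 10 genes and not *Tlr4* or *Tlr7*. The 250 bases before the start of *Tlr9* (chr9:106222348-106222597, plus strand), *Myd88* (chr9:119340019-119340268, minus strand) and *Tlr2* (chr3:83841609-83841858, minus strand) read as follows, 5′ to 3′. Capitals mark matches, on either strand, to any of the 5 motifs GAGGAA (core of sites for Ets factors such as PU.1), CCCNNGGG (core of Ebf1 sites), TGANTCA (AP-1), the interferon response core (GAAA repeated after 2 bases of any kind) and ATGCAAAT (the octamer of Oct factors, added after the *Tlr9* sequence had been seen).
Tlr9: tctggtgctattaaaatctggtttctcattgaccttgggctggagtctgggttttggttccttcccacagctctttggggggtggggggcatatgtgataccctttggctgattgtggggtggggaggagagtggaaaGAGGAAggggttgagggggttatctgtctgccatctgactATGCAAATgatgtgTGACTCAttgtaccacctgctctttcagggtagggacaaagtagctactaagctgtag
Myd88: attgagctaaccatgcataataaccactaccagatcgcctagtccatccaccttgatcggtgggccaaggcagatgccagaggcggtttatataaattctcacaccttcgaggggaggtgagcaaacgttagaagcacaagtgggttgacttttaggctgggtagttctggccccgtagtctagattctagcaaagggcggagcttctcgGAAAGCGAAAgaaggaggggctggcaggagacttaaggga
Tlr2: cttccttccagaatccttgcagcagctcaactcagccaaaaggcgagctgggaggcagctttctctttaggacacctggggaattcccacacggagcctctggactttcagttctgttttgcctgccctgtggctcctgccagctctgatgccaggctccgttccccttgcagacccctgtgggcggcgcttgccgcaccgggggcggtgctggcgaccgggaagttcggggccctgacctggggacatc

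The *Tlr9* window held an Ets core at -112, an octamer at -72 and an AP-1 motif at -58, each counted from the start site to the first base of the match. These motifs occur in 23.3%, 1.60% and 6.75% of 32851 promoter windows of the same length. Because the octamer was added after this sequence had been seen, its share does not measure how unexpected its match is. The *Myd88* window held an interferon response motif at -40, found in 2.98% of windows. The *Tlr2* window held none of the 5, and no window of the 8 matched genes held the Ebf1 core, found in 11.8%. The Ets motif was searched as GAGGAA in full, so the shorter GGAA that Ets sites share, which the *Tlr2* window holds, was not marked. Elsewhere, an Ets core lay at -23 in 1 of the *Tlr1* windows and at -77 in that of *Tlr8*, and overlapping interferon response motifs lay at -116 and -110 in 1 of the *Tlr6* windows. A match describes these letters and does not show that a factor binds there.

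The other genes of the pathway were described from lists of known components. Of 64 listed genes, 63 were matched in the table and 53 reached 1 FPKM in either library. In pro-B cells 19 of the 53 (35.8%) were lower by 2-fold or more and 2 (3.77%) higher by as much, against 19.1% and 12.2% of all genes. Their median log2 difference was -0.53. Of the 19 lower genes, 5 belong to the list of factors that carry or process endosomal receptors, 3 are IRF factors and 3 are interleukin-1 family receptors, while 15 of 18 kinases and ligases lay within 2-fold.

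**Figure D4:**
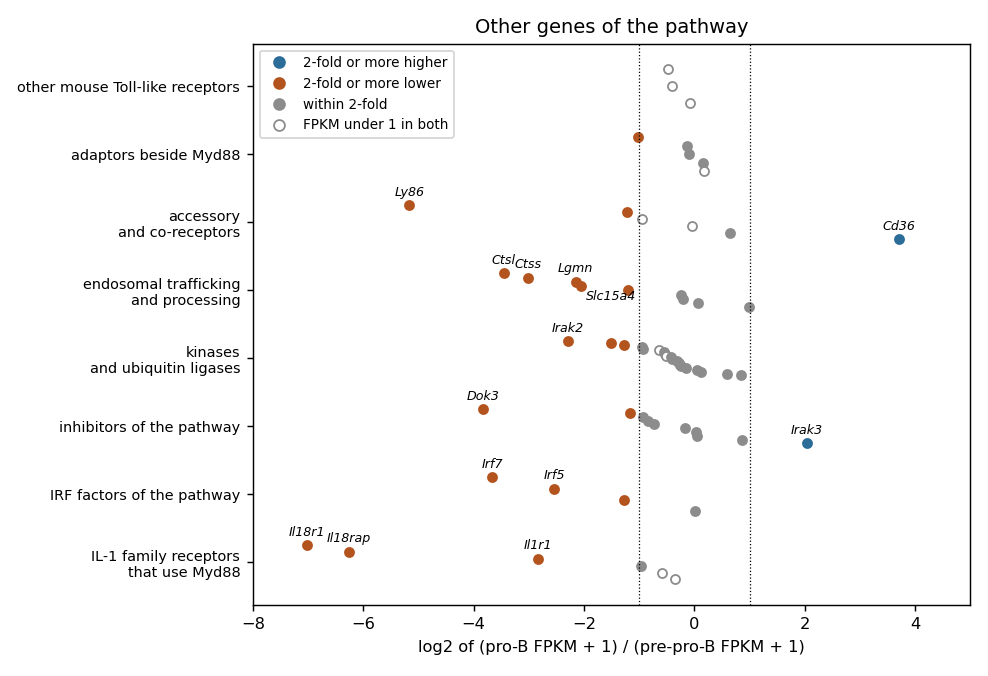
Log2 difference with a pseudocount of 1 for the 63 other pathway genes by list, with filled orange and blue points for genes lower or higher by 2-fold or more in the pro-B library, grey for genes within 2-fold, open circles for genes with an FPKM under 1 in both libraries, and dotted lines at 2-fold. *Il18r1* at -7.03 and *Il18rap* at -6.26 lie farthest left, and *Cd36* at 3.71 farthest right.

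The remaining mouse receptors, *Tlr11*, *Tlr12* and *Tlr13*, lay between 0.0603 and 0.395 FPKM in the pre-pro-B library and were listed at 0 in the pro-B library. Of the adaptors beside Myd88, *Ticam1* was lower (FPKM 4.51 and 1.70, in the order pre-pro-B and pro-B cells here and for the genes that follow). *Tirap*, the bridge between Tlr2 or Tlr4 and Myd88, had 1.60 and 1.38, and *Ticam2*, which links Tlr4 to Ticam1, had 3.52 and 3.23. *Pik3ap1*, an adaptor to PI3 kinase, was the most abundant of them with 66.2 and 73.6.

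Of the accessory receptors, those that help Tlr4 differed in level. *Ly96*, which encodes the MD-2 subunit that binds lipopolysaccharide with Tlr4, had an FPKM of 6.03 and 9.98, and *Cd14*, which hands lipopolysaccharide to that complex, had 0.0299 and 0. *Cd180*, a receptor related to Tlr4, was lower in pro-B cells (FPKM 152 and 64.2). The FPKM of *Ly86*, which encodes its MD-1 partner, was 36.4 and 0.0381. *Cd36*, a scavenger receptor that assists Tlr2 with Tlr6, was higher (0.0636 and 12.9).

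Of 9 genes that fold, carry or process endosomal receptors, 5 were lower by 2-fold or more in the pro-B library and 0 higher. These shares of 55.6% and 0% compare with 19.1% and 12.2% of all genes, and the median log2 difference was -1.21. *Unc93b1*, the chaperone that delivers the nucleic acid receptors to endosomes, was not among them. Its FPKM was 33.4 and 67.6, 2.02-fold apart, with a log2 difference of 0.99 that lay just within 2-fold at a pseudocount of 1 and past it at 0.1 or 0.01. *Hsp90b1* (gp96), the chaperone most Toll-like receptors need for folding, was the most abundant with 245 and 257. The lower genes were the co-chaperone *Cnpy3* (25.3 and 10.3), the lysosomal transporter *Slc15a4* (31.7 and 6.85) and the proteases *Ctsl* (58.2 and 4.39), *Ctss* (51.4 and 5.48) and *Lgmn* (6.67 and 0.733), which can cleave receptors in endosomes.

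Of the 18 kinases and ligases counted, 16.7% were lower, near the 19.1% of all genes. The 3 lower kinases were *Irak1* (22.5 and 7.29), *Irak2* (4.97 and 0.220) and *Ripk1* (30.9 and 12.1). *Irak4*, the first kinase that Myd88 recruits, had an FPKM of 12.3 and 5.96, a log2 difference of -0.93. *Traf6*, the ubiquitin ligase downstream of the Irak kinases, had 27.0 and 49.5. *Peli1* was the most abundant in pre-pro-B cells (79.6) and *Traf6* in pro-B cells.

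Of 10 inhibitors, 7 lay within 2-fold. *Irak3* (Irak-M), which blocks signalling from Irak kinases, was higher in pro-B cells (FPKM 0.270 and 4.22). *Dok3* (14.9 and 0.112) and *Socs1* (6.41 and 2.30) were lower. *Inpp5d* (Ship1), the most abundant in both libraries, had 45.3 and 82.8.

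Of the IRF factors that act below these receptors, *Irf7*, with which Tlr7 and Tlr9 induce type I interferon, had an FPKM of 15.9 and 0.326. *Irf5* had 11.9 and 1.22 and *Irf8* 66.9 and 27.0, so that 3 of 4 were lower, against 19.1% of all genes. *Irf3*, which acts below Tlr3 and Tlr4, had 13.6 in each library. The interleukin-1 family receptors share the adaptor Myd88. *Il18r1* (201 and 0.546) and *Il18rap* (87.2 and 0.148), the chains of the interleukin-18 receptor, and *Il1r1* (8.75 and 0.360) were lower. *Il1rap*, the co-receptor of Il1r1, had 12.8 and 6.04, a log2 difference of -0.97.

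Some markers of other cells were, like *Tlr7* and *Tlr9*, lower in pro-B cells, and others were not. Of all 10525 genes counted, 19.1% were lower by 2-fold or more and 12.2% higher by as much. Listed genes under 1 FPKM in both libraries could not be counted as lower or higher. Of 7 genes used to recognise plasmacytoid dendritic cells, which are rich in Tlr7 and Tlr9, 5 were lower in pro-B cells and 2 higher, and their summed FPKM was 667 and 245. *Siglech* (54.3 and 0.236), *Ccr9* (212 and 0.661), *Bst2* (39.3 and 2.59) and *Cox6a2* (246 and 47.8) were lower, while *Tcf4* (35.3 and 75.8) and *Spib* (13.6 and 90.9) were higher, and none of the 7 was at 0. Of 9 monocyte, macrophage and granulocyte genes 5 were lower, 0 higher and 4 under 1 FPKM in both libraries, with a summed FPKM of 94.5 and 6.71. In that list *Mpo* had 35.7 and 0.122, *Ly6c2* 21.8 and 0.0803, *Adgre1* 11.7 and 0.111 and *Itgam* 19.7 and 6.40, whereas *Elane* and *Fcgr1* were listed at 0 in both and *Csf1r* had 0.170 and 0. Of the 6 conventional dendritic cell genes (summed FPKM 13.4 and 9.03) *Itgax* was lower (8.07 and 0.294), *H2-Ab1* had 4.30 and 8.74, the other 4 did not reach 1 FPKM, and *Cd209a* was listed at 0 in both. Of the 7 T and NK cell genes 5 were lower and 2 under 1 FPKM in both libraries, with a summed FPKM of 96.7 and 6.51. Among them *Cd3g* had 36.8 and 0.0351, and *Lck*, the most abundant in pre-pro-B cells (38.0), had a log2 difference of -3.29. *Klrb1c* had 18.3 and 3.37, and the defining *Cd3e* had 0.239 and 0.102. Of the 5 mast cell genes *Cpa3* was lower (10.5 and 0.0296), and the other 4 were listed at 0 in both. *Irf8* is also in the list of IRF factors and *Cd14* in that of accessory receptors. The part of such cells in the levels of the receptors was not tested.

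OP-9 stromal cells were present in both cultures, and by the study's methods stromal cells left in the harvest were allowed to attach to a fresh flask before the suspended cells were taken. Of 10 stromal genes, *Col1a2* (FPKM 0.707 and 2.82) and *Cxcl12* (0.618 and 2.92) were higher in pro-B cells and *Pdgfrb* (15.9 and 0.377) was lower, and the summed FPKM was 19.3 and 12.4. This sum rested on *Pdgfrb*. Without it, a choice made after the values were seen, the other 9 genes summed to 3.38 and 12.1, 3.57-fold apart. All 7 of them listed above 0 had the higher value in pro-B cells, but only *Col1a2* and *Cxcl12* were counted as higher by 2-fold or more. *Dcn* and *Postn* were listed at 0 in both. The FPKM of *Tlr4* was 3.07 and 16.6. The part of stromal RNA in the level of *Tlr4* was not tested.

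**Figure D5:**
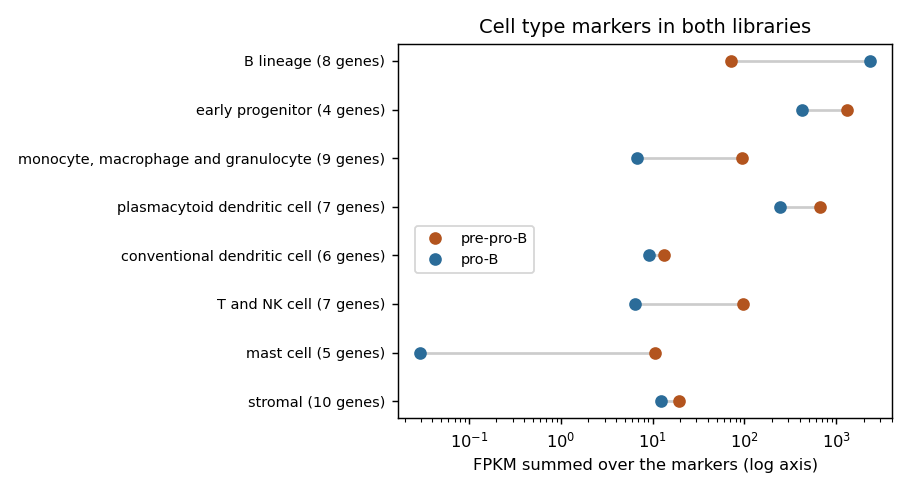
FPKM summed over the markers of each cell type (log axis) in the pre-pro-B library (orange) and the pro-B library (blue), with a grey line joining them. The B lineage sum is higher in pro-B cells (70.8 and 2320), and the plasmacytoid sum is higher in pre-pro-B cells (667 and 245). The stromal sum of 19.3 in pre-pro-B cells (12.4 in pro-B cells) holds 15.9 from *Pdgfrb*. Without that gene, a choice made after the values were seen, the stromal sum is lower in pre-pro-B than in pro-B cells (3.38 and 12.1).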

How the data were processed

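RNA-seq of 1 pre-pro-B and 1 pro-B library was analysed. The authors depleted ribosomal RNA, made strand-specific libraries, trimmed the 97 bp single-end reads, aligned them to mm9 with TopHat and estimated each RefSeq transcript with Cuffdiff 2.1.1, with multi-read and bias correction. The deposited values are FPKM, scaled by the authors to transcript length and mapped reads. The deposited limits of the 95% interval of each FPKM are a signal that is never negative. A further table with the authors' log2 fold changes, p-values and q-values was not used, and 2 per-sample columns in it were left out.

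Gene names came from a RefSeq table of GRCm38.p6 and matched 26551 of 26968 protein-coding rows. Coordinates are the deposited ones on mm9, written from 1. FPKM were summed per gene. Genes that reached 1 FPKM in either library were counted at 2-fold on log2(FPKM + 1), a scale that understates changes of low genes. Members, lists and rules were chosen with earlier results of these data known. Genes named were all members and, of each list, the most abundant in each library and others past 2-fold, not all of which are named. Tirap, Ticam2, Cd14, Ly96, Unc93b1, Irak4 and Irf3 were named for their roles, and Cd3e, Csf1r, Elane, Fcgr1, Cd209a, Dcn and Postn as defining markers, after their values were seen. Markers served as a check of cell types. FPKM were converted to fragments with transcript length and the nominal 90000000 reads per library. That depth is not the number of mapped reads to which FPKM are scaled, so the fragment numbers are approximate. Intervals come from Cuffdiff's model and do not measure the spread between cultures. A listed 0 is not read as absence. Alternatives changed the pseudocount, filter, scaling, threshold and choice of transcripts. Python 3.11.15, numpy 2.4.6 and pandas 2.3.3 were used, and the scripts were tested on simulated data.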

Additional observations from a re-analysis of the deposited data

How the results depend on the processing

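No paired analysis was possible because each cell type had 1 library, and no library could be left out. With a pseudocount of 0.1 or 0.01, 2 members instead of 1 were higher in pro-B cells by 2-fold or more, as *Tlr6* joined *Tlr4*, and *Myd88* joined the 3 lower members. Over all genes the shares were larger too (14.2% higher and 22.1% lower at 0.1), and *Unc93b1* joined the higher pathway genes (3 instead of 2). *Myd88* also joined the lower members when FPKM were rescaled to TPM, which shifted log2 differences by -0.09. At a threshold of 4-fold, 1 member was lower, *Tlr7*, and 12 pathway genes instead of 19, against 7.47% of all genes lower and 4.29% higher. A filter at an FPKM of 5 left out *Tlr9* and left 1 pathway gene higher instead of 2. *Tlr7* was lower and *Tlr4* higher under each of the 10 alternatives. The value for *Tlr7* ranged from -7.88 with a pseudocount of 0.01 to -5.19 with median ratio scaling, and for *Tlr9* reached -3.52. The lack of replicates limits every member, *Tlr7* and *Tlr4* included, and for all but *Tlr7* the intervals overlapped.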
